A study of Mus musculus with 12 samples.

Results

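The p53 pathway was followed through 31 mouse genes, the gene of p53 itself (Trp53), its regulators and its best known targets, chosen by symbol. All 31 were found among the 54532 genes of the expression table. Polyadenylated RNA had been sequenced from cultured cells of a mouse melanoma line that carries an activated BRAF kinase, in 4 groups of 3 libraries. Cells labelled Gli2CA are described as carrying an active mutant of Gli2, a transcription factor of the Hedgehog pathway, and cells labelled NTC are their non-targeted control. Cells labelled Cas9-Gli2KO were made as a CRISPR knockout of Gli2, and Cas9-NTC is their own non-targeted control. All 4 groups share this background and grew in puromycin, and both Cas9 groups grew in blasticidin as well. No age, drug dose series or time course is part of the design. Whether replicate libraries stem from separate cultures, whether a line is 1 clone and which part of Gli2 was targeted are not stated in the labels. The p-values therefore measure only the spread between these libraries, which may be technical.

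p53 is a transcription factor that is held low in unstressed cells by the ubiquitin ligase Mdm2, itself a p53 target, and by the related protein Mdm4. DNA damage, oncogene signalling and other stress release it, and it then raises genes that stop the cell cycle, start apoptosis, repair DNA or change metabolism. Its best known target, Cdkn1a, encodes p21, an inhibitor of cyclin-dependent kinases. In melanoma the p53 gene is often kept intact, while its upstream activator ARF, a product of the Cdkn2a locus that restrains Mdm2, is often lost. RNA levels report on the transcripts of these genes, and p53 protein, its binding to DNA and its mutations were not analysed here.

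p53 binds DNA as pairs of a short decamer known as the p53 half-site. The 4 promoter windows below are shown because each holds at least 1 match to that half-site, here in capitals. Each also belongs to a member whose change differed between the experiments with Gli2CA and with the cells labelled Cas9-Gli2KO. They are RefSeq windows of GRCm38.p6, from 250 bases before to 50 bases after an annotated start site, written 5′ to 3′ along the gene.
Cdkn1a promoter, chr17:29090729-29091028 on the plus strand: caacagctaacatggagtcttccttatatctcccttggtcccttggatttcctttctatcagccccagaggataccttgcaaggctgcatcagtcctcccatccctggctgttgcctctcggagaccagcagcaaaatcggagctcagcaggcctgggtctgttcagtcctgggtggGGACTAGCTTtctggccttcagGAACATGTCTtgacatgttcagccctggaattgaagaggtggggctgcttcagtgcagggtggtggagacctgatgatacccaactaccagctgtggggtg
Sesn1 promoter, chr10:41887189-41887488 on the plus strand: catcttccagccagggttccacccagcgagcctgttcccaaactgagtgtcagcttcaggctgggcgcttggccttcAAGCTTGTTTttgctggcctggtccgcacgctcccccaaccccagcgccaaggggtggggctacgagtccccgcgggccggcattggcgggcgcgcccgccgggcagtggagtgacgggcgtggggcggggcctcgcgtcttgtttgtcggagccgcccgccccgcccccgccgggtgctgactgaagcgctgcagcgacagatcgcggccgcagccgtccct
Ei24 promoter, chr9:36797285-36797584 on the minus strand: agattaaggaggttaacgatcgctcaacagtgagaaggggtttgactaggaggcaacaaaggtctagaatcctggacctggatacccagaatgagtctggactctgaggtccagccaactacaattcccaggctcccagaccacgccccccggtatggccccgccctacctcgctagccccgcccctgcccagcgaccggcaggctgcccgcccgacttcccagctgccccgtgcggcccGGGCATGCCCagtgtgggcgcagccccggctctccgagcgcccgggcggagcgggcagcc
Polk promoter, chr13:96519138-96519437 on the minus strand: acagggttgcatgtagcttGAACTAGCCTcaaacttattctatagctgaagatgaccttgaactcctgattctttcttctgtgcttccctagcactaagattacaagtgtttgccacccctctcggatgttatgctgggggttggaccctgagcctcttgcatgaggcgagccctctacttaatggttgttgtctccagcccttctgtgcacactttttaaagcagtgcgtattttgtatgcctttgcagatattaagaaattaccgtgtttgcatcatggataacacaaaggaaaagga
The Cdkn1a window holds 2 matches, GGACTAGCTT at position -73 and GAACATGTCT at position -51 from the start site. The single matches lie at position -173 in the Sesn1 window, -10 in the Ei24 window and -231 in the Polk window. Cdkn1a, Sesn1 and Polk each have another window, at a different start site and not printed, which holds no match. The printed Sesn1 and Polk windows lie inside the annotated genes, and their other windows are nearer the 5′ end. Of the 31 members, 24 were matched to RefSeq by symbol, with 33 windows between them, and 10 members held the half-site in 11 windows. Besides those shown, these were Trp53, Mdm2, Bax, Ccng1, Aen and Gtse1. Of all 27025 genes with such windows, 9.55% held at least 1 match. Among all 32851 windows of 300 bases, 8.36% held at least 1 match and 0.359% held 2 or more. The half-site reads the same on both strands, so a match counts once. A match is a run of letters and not a measured binding site.

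Levels are FPKM, fragments or reads per kilobase of exon scaled to library size, so that they can be set side by side between genes of different length. The reads behind them, recovered from the values and the exon lengths, came to between 15972800 and 25983200 per library. Gli2 RNA bore out neither label, with 0 reads in each NTC library, 1, 0 and 5 in Gli2CA, 29 to 61 in Cas9-NTC and 130 to 345 under the Cas9-Gli2KO label. It does not show whether the gene was edited, nor whether reads of an introduced Gli2 would be counted under this gene. Of the Hedgehog targets, Gli1, a transcription factor, was at 0.228, 0.177 and 0.162 FPKM in NTC and at 1.27, 1.33 and 0.967 in Gli2CA. Ptch1, the Hedgehog receptor, rose in Gli2CA from 2.68, 2.48 and 2.66 FPKM to 5.92, 5.54 and 5.7 (log2 change 0.90, limma adjusted p = 6.76e-05). Gli1 and Ptch1 were chosen after their values had been seen, and Ptch1 was not called in the libraries labelled Cas9-Gli2KO (-0.34, limma adjusted p = 0.264). The 2 control lines differed in identity markers too, with Sox10, a transcription factor of the melanocyte lineage, at 9153 to 13700 reads in NTC and at 0 to 3 reads in both Cas9 groups. Of 12 melanocyte and melanoma markers, 6 were at 1 FPKM or more in NTC and in Gli2CA and 4 in each Cas9 group, with Tyrp1 and Dct, both enzymes of pigment synthesis, at 0 in all 12 libraries. The summed melanocyte level was 299 to 307 FPKM in NTC, 234 to 245 in Gli2CA, 121 to 123 in Cas9-NTC and 69.9 to 106 under the Cas9-Gli2KO label, and 4 of 6 such markers tested were called lower in Gli2CA, Sox10, S100b, Gpnmb and Rab38. Between the control lines, 2 of 6 such markers tested were called higher in Cas9-NTC and 4 lower. Of the lower ones, Sox10 and Rab38 passed the filter of at least 1 FPKM in at least 3 libraries through NTC alone. The higher ones were Mitf, at 1.03 FPKM in NTC and 2.67 in Cas9-NTC, and Gpnmb, at 10.7 and 110. Gpnmb made up most of the melanocyte sum in Cas9-NTC. Markers of other cell types also moved with the groups. The 10 leukocyte markers summed to 1.78 to 2.94 FPKM in NTC, 7.37 to 8.89 in Gli2CA, 9.52 to 9.73 in Cas9-NTC and 1.79 to 2.41 under the Cas9-Gli2KO label. Most of this was Cd68, a lysosomal protein of macrophages, called higher in Gli2CA (log2 change 1.75, limma adjusted p = 4.88e-05) and lower under the Cas9-Gli2KO label (-1.92, limma adjusted p = 0.00127), while the T cell gene Cd3e was at 0 in all 12 libraries. On the same list, Itgam and Adgre1 had 0 to 1 reads per library and Ptprc 0 to 13. Cd14 had 0 to 15 reads, Csf1r 0 to 20 and Lyz2 0 to 24. The 6 endothelial markers summed to 4.49 to 5.4, 20.4 to 23.1, 10.2 to 11.4 and 8.34 to 24.6 FPKM in the same order of groups. Flt1, a receptor of vascular growth factors, was called higher in Gli2CA, at 4.94 ± 0.466 FPKM in NTC and 21.4 ± 1.37 in Gli2CA (SD, n = 3). Under the Cas9-Gli2KO label Flt1 (-1.10) and Cdh5, an endothelial cadherin (1.56), did not pass the test, with limma adjusted p of 0.0541 and 0.0566. The other endothelial markers, Pecam1, Kdr, Tek and Vwf, stayed at or below 0.141 FPKM in all 12 libraries. The 7 fibroblast markers summed to 5.52 to 7.26, 5.46 to 6.24, 8.36 to 8.94 and 14.3 to 20.8 FPKM, with Lum, a matrix proteoglycan, at 0 in all 12 libraries. Fap, a fibroblast surface protease, rose under the Cas9-Gli2KO label from 5.99 ± 0.378 to 17.2 ± 3.90 FPKM and was at 0 in NTC and Gli2CA. Pdgfra, of the same list, fell there from 1.91 ± 0.0664 to 0.62 ± 0.309 FPKM, so that 1 of 2 fibroblast markers tested was called higher and 1 lower. There Pdgfra passed the filter through Cas9-NTC alone. With Gli2CA the 2 tested were split as well. Col1a1 was lower, at 4.75 FPKM in NTC and 2.44 in Gli2CA, and Pdgfra higher, at 1.3 and 2.52. The 6 keratinocyte markers summed to 1.26 to 3.57 FPKM over all 12 libraries, with Krt1 at 0 in each. The part of these markers in the results below was not tested. The third library labelled Cas9-Gli2KO stood apart from the other 2, and the members called without it are given with their values in that comparison.

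Trp53 RNA was present in every library (ENSMUSG00000059552, chromosome 11, 69580359 to 69591873, plus strand, GRCm38 in GENCODE M21). It was at 34.8, 32.2 and 33.5 FPKM in NTC, 31.4, 26.6 and 29.0 in Gli2CA, 36.2, 35.0 and 37.4 in Cas9-NTC and 25.7, 29.7 and 44.0 in the libraries labelled Cas9-Gli2KO. Those group means put it above 84.0%, 81.1%, 86.6% and 85.1% of the genes at 1 FPKM or more, in the same order. The other members of the p53 family were close to silent, with Trp63 and Trp73 at 0 to 2 reads per library. Members at the top of the list were 5 in NTC, 6 in Gli2CA, 6 in Cas9-NTC and 6 in the group labelled Cas9-Gli2KO, counting those in the top 10% of the genes at 1 FPKM or more. Phlda3, whose product restrains the kinase Akt, reached 270 ± 13.0 FPKM in NTC (SD, n = 3), and Cdkn1a 195 ± 8.83 FPKM. Bax, a pore-forming activator of apoptosis, Ccng1, a cyclin that acts on Mdm2, and Ephx1, a detoxifying epoxide hydrolase, were also among them in each group. At the bottom, Perp, a membrane protein of p53-driven apoptosis, had 0 to 2 reads in each of the 12 libraries, where 3 reads would be 0.0591 to 0.0962 FPKM.

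**Figure D1:**
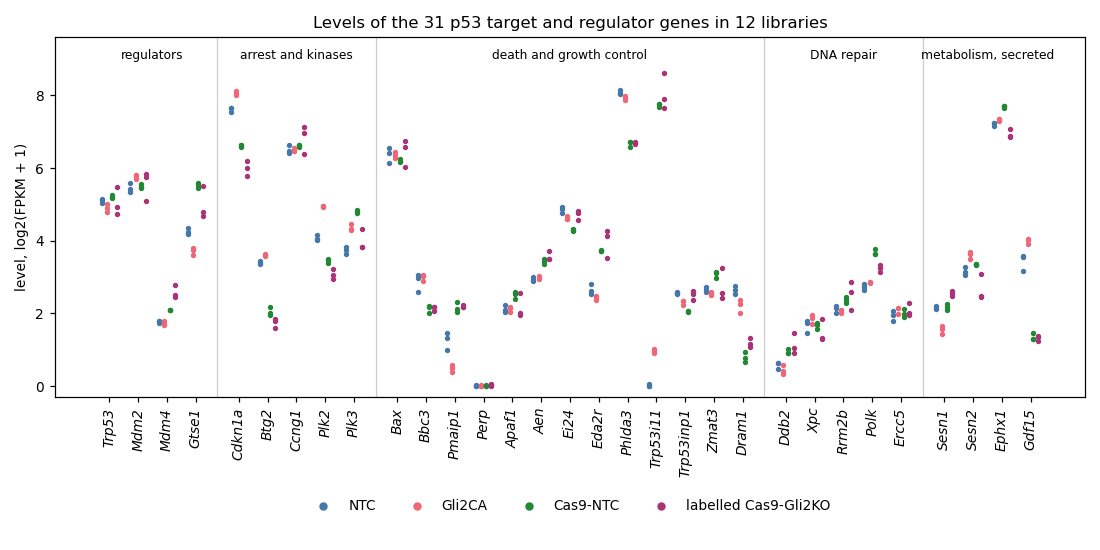
Levels of the 31 members on a log2(FPKM + 1) axis, ordered by role along the horizontal axis, with 1 point per library and 1 colour per group of 3 libraries. Perp lies at or near 0 in all 12 libraries, while Trp53i11 is near 0 in NTC and above 7 in both Cas9 groups.

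Cdkn2a was not detected in any library (ENSMUSG00000044303, chromosome 4, 89274471 to 89294653, minus strand). This locus encodes ARF, which frees p53 from Mdm2, and the kinase inhibitor p16. It had 0 reads in all 12 libraries, and 3 reads would be at most 0.16 FPKM, a limit for counting error only. The neighbouring kinase inhibitor gene Cdkn2b also had 0 reads in all 12, with a limit of 0.135 FPKM. Mtap, a metabolic gene on the other side of Cdkn2a, had 0 to 3 reads. Genes farther out on each side were expressed, Klhl9 at 1774 to 3319 reads and Dmrta1 at 24 to 450 reads per library. Mtap, Klhl9 and Dmrta1 were chosen after their values had been seen, and DNA copy number was not measured. A phosphatase and some of the upstream kinases that act on p53 were above 1 FPKM. The kinase genes Atr, Prkdc and Hipk2 were lower, at 0.548, 0.529 and 0.459 FPKM in NTC. Ppm1d, a phosphatase that reverses p53 activation, was at 5.98 ± 0.811 FPKM in NTC (SD, n = 3), Atm, the kinase of the response to DNA breaks, at 1.45 ± 0.362 FPKM and Chek2, a kinase that phosphorylates p53, at 6.89 ± 0.516 FPKM.

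**Figure D2:**
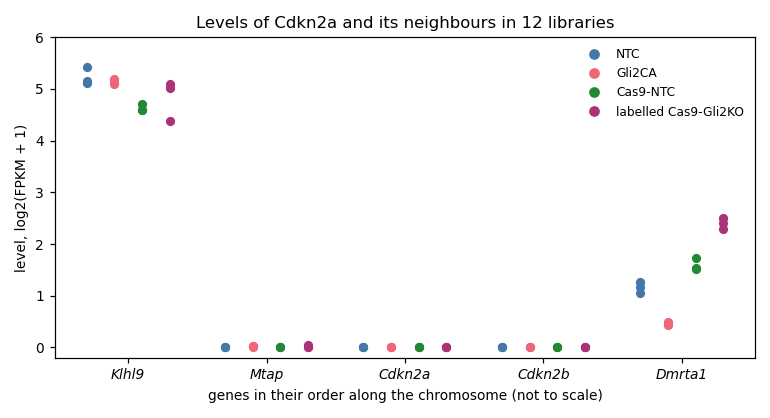
Levels of Cdkn2a and 4 neighbouring genes of chromosome 4 on a log2(FPKM + 1) axis, with 1 point per library and 1 colour per group; genes stand in chromosome order, not to scale. Mtap, Cdkn2a and Cdkn2b lie at or near 0 in all 12 libraries between Klhl9 and Dmrta1, which are expressed.

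In cells labelled Gli2CA, p53 targets moved in both directions. Of 27 members tested, 7 rose, 5 fell and 15 did not pass the test, or 44.4% called, where a call is a Benjamini-Hochberg adjusted p under 0.05 over all genes tested in limma. The background is large, since 26.8% of all 10784 genes tested were called, and the median log2 change was 0.00 over the members and over all genes. The 3 libraries of Gli2CA lay above those of NTC for 9 members and below them for 8, or 63% together, against 44.6% of all genes tested. Arrest genes and stress kinases were called higher in 4 of 5 cases and lower in none, or 80%. Of the 10 death and growth control genes tested none was called higher and 3 were called lower, or 30%, close to the 26.8% of all genes tested. Trp53i11, Pmaip1, Ddb2 and Perp were below the filter of at least 1 FPKM in at least 3 libraries.

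Among the regulators, Mdm2 (ENSMUSG00000020184, chromosome 10, 117688875 to 117710758, minus strand) was at 42.2, 47.1 and 39.8 FPKM in NTC and at 51.2, 54.3 and 54.8 in Gli2CA. All 3 Gli2CA libraries lay above NTC, and Mdm2 rose 1.24-fold (log2 change 0.31 ± 0.07 SE, limma adjusted p = 0.0165), a call that was made in 10 of 15 alternatives. Trp53 was lower in each Gli2CA library than in each NTC library, and its log2 change of -0.21 ± 0.07 did not pass the test (limma adjusted p = 0.0739). With all libraries scaled to a common FPKM sum it did pass, at -0.36 with an adjusted p of 0.00739 in limma, where the median of all genes shifted by -0.14. Mdm4 was at 2.49, 2.46 and 2.34 FPKM in NTC and at 2.25, 2.24 and 2.44 in Gli2CA, and these overlap (log2 change -0.05). Gtse1, a microtubule-associated protein that binds p53 and lowers its activity, was at 19.3, 17.3 and 17.9 FPKM in NTC and at 13.0, 11.2 and 12.3 in Gli2CA. It fell in Gli2CA, with no overlap, by 0.54 ± 0.08 on the log2 scale (limma adjusted p = 0.00124).

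Cdkn1a (ENSMUSG00000023067, chromosome 17, 29090976 to 29100727, plus strand), whose promoter window with 2 half-sites is printed above, was at 200, 185 and 200 FPKM in NTC and at 276, 258 and 266 in Gli2CA. Every Gli2CA library was above every NTC library, and Cdkn1a rose 1.37-fold (log2 change 0.45 ± 0.06 SE, limma adjusted p = 0.00109). An antisense gene covers 7.68% of its exons, and the use of strand in counting is not stated. Plk2, a polo-like kinase induced by stress, was at 17.0, 15.3 and 15.7 FPKM in NTC and at 29.5, 30 and 30.1 in Gli2CA. It rose 1.87-fold, the largest rise among the members tested, with Gli2CA libraries that differed little from each other (log2 change 0.86 ± 0.06, limma adjusted p = 4.13e-05). The related kinase Plk3 was at 11.4, 12.5 and 13.2 FPKM in NTC and at 21.1, 19.1 and 18.7 in Gli2CA. It rose 1.58-fold, again without overlap (log2 change 0.62 ± 0.08, limma adjusted p = 0.000679). Btg2, an antiproliferative cofactor of mRNA decay, was at 9.47, 9.78 and 9.30 FPKM in NTC and at 11.3, 11 and 11.4 in Gli2CA. Its rise of 0.22 ± 0.06 on the log2 scale (limma adjusted p = 0.0327) was called in 6 of 15 alternatives. Ccng1 overlapped between the groups (log2 change -0.01).

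Among death and growth control genes, Dram1, a lysosomal protein of autophagy, was at 5.25, 5.78 and 4.82 FPKM in NTC and at 3.02, 3.78 and 4.13 in Gli2CA. It fell without overlap (log2 change -0.44 ± 0.11, limma adjusted p = 0.0181). Trp53inp1, a p53 cofactor, was at 4.88, 4.97 and 4.75 FPKM in NTC and at 4.09, 3.67 and 4.06 in Gli2CA. Its fall was small and was called in 6 of 15 alternatives (log2 change -0.25 ± 0.07, limma adjusted p = 0.0379). Ei24, a membrane protein of the endoplasmic reticulum, was at 28.2, 26.1 and 29.3 FPKM in NTC and at 23.2, 24.6 and 23.3 in Gli2CA, and its fall was called in 7 of 15 alternatives (log2 change -0.22 ± 0.07, limma adjusted p = 0.0386). The classical executors did not pass the test, with log2 changes of -0.01 for Bax, 0.13 for Bbc3, which encodes Puma, and 0.00 for Apaf1, the scaffold of the apoptosome. Phlda3 (-0.15) and Eda2r (-0.22), a receptor of the tumour necrosis factor family, lay below NTC in all 3 libraries with no call, and Aen (0.04), a nuclease, and Zmat3 (-0.11) overlapped. Pmaip1, which encodes the death activator Noxa, was below the filter, at 0.977, 1.76 and 1.53 FPKM in NTC and at 0.402, 0.501 and 0.301 in Gli2CA. These rest on 61 to 82 and on 15 to 25 reads, do not overlap and were not tested. Trp53i11, named for its induction by p53, had 0, 0 and 2 reads in NTC and 60, 63 and 62 in Gli2CA, so its Gli2CA mean of 0.951 FPKM was at least 21.3-fold above the level of 3 reads per NTC library.

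Both sestrins, which restrain the growth kinase complex mTORC1 under stress, were called, in opposite directions. Sesn1, a member with a half-site in the promoter window printed above, was at 3.55, 3.37 and 3.61 FPKM in NTC and at 1.95, 1.69 and 2.16 in Gli2CA. It fell to 0.551 times the NTC mean without overlap (log2 change -0.62 ± 0.09, limma adjusted p = 0.00127). Sesn2 was at 7.81, 7.40 and 8.74 FPKM in NTC and at 11.8, 11.4 and 10.4 in Gli2CA. It rose 1.40-fold without overlap (log2 change 0.44 ± 0.08, limma adjusted p = 0.00501). Gdf15, a secreted stress cytokine, was at 11, 7.94 and 10.8 FPKM in NTC and at 15.6, 14.1 and 15.1 in Gli2CA, and it rose 1.5-fold (log2 change 0.56 ± 0.12, limma adjusted p = 0.00848). No gene of DNA repair and nucleotide supply was called among the 4 tested, Xpc, Rrm2b, Polk and Ercc5, whose log2 changes ran from -0.07 to 0.17. The detoxifying Ephx1 was above NTC in all 3 libraries with no call (0.12). Ddb2, a sensor of damaged bases that was below the filter, had 24 to 26 reads in NTC and 11 to 24 in Gli2CA.

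Genes around the pathway were taken from lists chosen for known function. Of 29 cell cycle genes that p53 lowers through p21 and the DREAM repressor complex, 25 fell and 1 rose in Gli2CA, or 89.7% called beside 26.8% of all genes tested, with a median log2 change of -0.50 against -0.00 over all genes tested. Examples are Lmnb1, a nuclear lamin, at 32.3 ± 0.777 FPKM in NTC and 17.9 ± 1.06 in Gli2CA (SD, n = 3), and Birc5, which encodes survivin, at 24.9 ± 3.81 and 14.4 ± 0.337. Ccna2, a cyclin of DNA synthesis, and Cdc20, an activator of mitotic exit, fell by 0.73 and 0.71 on the log2 scale. Of 26 further p53 targets tested, 4 rose and 4 fell, or 30.8%, a share close to that background. The rises included Igfbp3, a binder of insulin-like growth factors (log2 change 0.97), and the falls Psrc1 (-0.90) and Ckap2 (-0.72), both of the mitotic spindle. Of 28 upstream regulators and cofactors tested, 2 rose and 4 fell, or 21.4%, below the background. Among them were Twist1 (0.54), a transcription factor that antagonises p53, and Ppp1r13l (0.40), which encodes the p53 inhibitor iASPP, as rises, and Chek1 (-0.56), Mdc1 (-0.54) and Chek2 (-0.33), all of the damage response, as falls. Ppm1d and Atm did not pass the test, with log2 changes of -0.07 and -0.11. In the list of kinase inhibitors and the RB arm, 1 of 14 tested rose, Ccnd2 (0.54), and 4 fell (35.7% called), Ccne2 (-0.61), Rbl1 (-0.54) and Cdkn2c (-0.41) among them.

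The balance of higher and lower calls depends on how libraries are scaled. The members called with Gli2CA kept their sign in every alternative, while some small changes without a call turned. Scaling to a common FPKM sum shifted the median of all genes by -0.14 and gave 5 members higher and 8 lower, where calls over all genes went from 1587 higher and 1307 lower to 984 higher and 2952 lower. When all 12 libraries shared 1 estimate of the spread, 6 of 27 members were called, 4 higher and 2 lower. Calls over all 10784 genes tested fell as well, to 1606, or 14.9%, from 26.8% in the main fit.

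In the second experiment 3 members were called, all lower in the libraries labelled Cas9-Gli2KO than in Cas9-NTC, the stress kinase Plk3, the p21 gene Cdkn1a and the epoxide hydrolase gene Ephx1. Of 30 members tested, 27 did not pass the test and none was called higher, or 10% called, beside 6.13% of all 10970 genes called, 196 higher and 476 lower. At an unadjusted p under 0.05 the members would number 13, or 43.3%, beside 3302 of all genes tested, or 30.1%. The libraries of the groups did not overlap for 12 members, 5 higher and 7 lower, or 40%, a share close to the 35.7% of all genes tested. The median log2 change was 0.03 over the members and -0.01 over all genes tested.

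Cdkn1a was at 94.8, 99.3 and 99.1 FPKM in Cas9-NTC and at 53.9, 63.3 and 72.5 in the libraries labelled Cas9-Gli2KO. All 3 of the latter were below the controls, and Cdkn1a fell to 0.647 times the control mean (log2 change -0.63 ± 0.14, limma adjusted p = 0.0483). Plk3 (ENSMUSG00000028680, chromosome 4, 117128655 to 117133963, minus strand) was at 27.5, 26.1 and 28.0 FPKM in Cas9-NTC and at 13.2, 13.2 and 19.0 in the other group. It fell to 0.557 times the control mean, with the third library the least low (log2 change -0.82 ± 0.16, limma adjusted p = 0.0356). Ephx1 (ENSMUSG00000038776, chromosome 1, 180976210 to 181020904, minus strand) was at 208, 209 and 201 FPKM in Cas9-NTC and at 114, 118 and 134 in the other group. It fell to 0.592 times the control mean without overlap (log2 change -0.76 ± 0.12, limma adjusted p = 0.0181). Plk2 lay below all controls as well, at 9.99, 9.52 and 10.2 FPKM in Cas9-NTC and 7.39, 6.73 and 8.37 in the other group, but did not pass the test (log2 change -0.37, limma adjusted p = 0.0984). The 3 calls depend on the setting, being made in 5 of 15 alternatives for Cdkn1a, whose adjusted p is near the threshold, 7 for Plk3 and 10 for Ephx1. Leaving out any single Cas9-NTC library left none of the 3. Nearly all other calls were lost then as well, with 18, 18 and 37 genes called in all, beside 672 with all libraries.

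For Trp53 and Mdm2 the third library went the other way from the first 2. Trp53 was below all controls in libraries 1 and 2 and above them in library 3 (log2 change over all 3 libraries -0.16 ± 0.20, limma adjusted p = 0.567). Mdm2 was at 46.3, 43.4 and 42.5 FPKM in Cas9-NTC and at 56.5, 53 and 32.9 in the other group, above the controls in libraries 1 and 2 and below them in library 3 (log2 change 0.07). Bax showed the same split, at 72.7, 70.3 and 74.4 FPKM in Cas9-NTC and at 107, 94.1 and 64.9 in the other group. Ccng1, at 98.5, 94.4 and 99.1 FPKM in Cas9-NTC and 140, 123 and 83.5 in the other group, was split alike. Eda2r, at 18.1, 16.6 and 10.6 FPKM, and Rrm2b, a subunit of ribonucleotide reductase at 6.36, 5.05 and 3.29 FPKM, were also above all controls in libraries 1 and 2 and below them in library 3. Zmat3, an RNA-binding zinc finger protein, and Xpc, a sensor in nucleotide excision repair, were split in the opposite way, like Trp53. In all, libraries 1 and 2 were on the same side of all controls for 24 of 30 members. That is 80%, close to the 82% of all genes tested. Of these 24, library 3 was on that side for 12, or 50%, beside 43.5% of such genes among all tested. It was within the range of the controls for 4 and on the other side for 8. That last share was 33.3% for the members and 33.7% for such genes among all tested.

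Without library 3 the count was 21 members, 9 higher and 12 lower, and 7657 of all 10784 genes tested were called as well. That is 71.0% of all genes tested, so the members' share is near the background. Trp53 was then called lower (log2 change -0.38, limma adjusted p = 0.00361) and Mdm2 higher (0.31, limma adjusted p = 0.00509). The 3 members called with all libraries were at -0.73 for Cdkn1a, -0.99 for Plk3 and -0.82 for Ephx1 without it. The other 8 higher calls were Bax (0.47), Ccng1 (0.43), Eda2r (0.47), Rrm2b (0.38), Mdm4 (0.55), Sesn1 (0.40), Trp53inp1 (0.52) and Ei24 (0.50). The other lower calls were Sesn2 (-0.88), Gtse1 (-0.79), Zmat3 (-0.59), Apaf1 (-0.51), Plk2 (-0.44), Polk (-0.44), Xpc (-0.34) and Btg2 (-0.32), with limma adjusted p-values up to 0.0341. The libraries also differed by transcript length. Genes with up to 2556 bases of exon were at a median of 0.47, 0.35 and -0.06 on the log2 scale from the control mean in libraries 1, 2 and 3, and genes with at least 6648 bases at -0.36, -0.28 and 0.06. Ribosomal protein genes made up 18.9%, 17.4% and 12% of the FPKM sum in these libraries and 11.8% to 12.1% in Cas9-NTC. With the length trend taken out of each library, an alternative added after seeing the data, 6 of 30 members were called. These were Sesn1, Trp53inp1 and Ei24, higher, and Cdkn1a, Plk3 and Ephx1, lower. Calls over all genes rose as well, to 1047 of 10970, or 9.54%, from 6.13% with the trend kept. The part of transcript length, of ribosomal protein RNA and of library 3 in the other values was not tested.

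**Figure D3:**
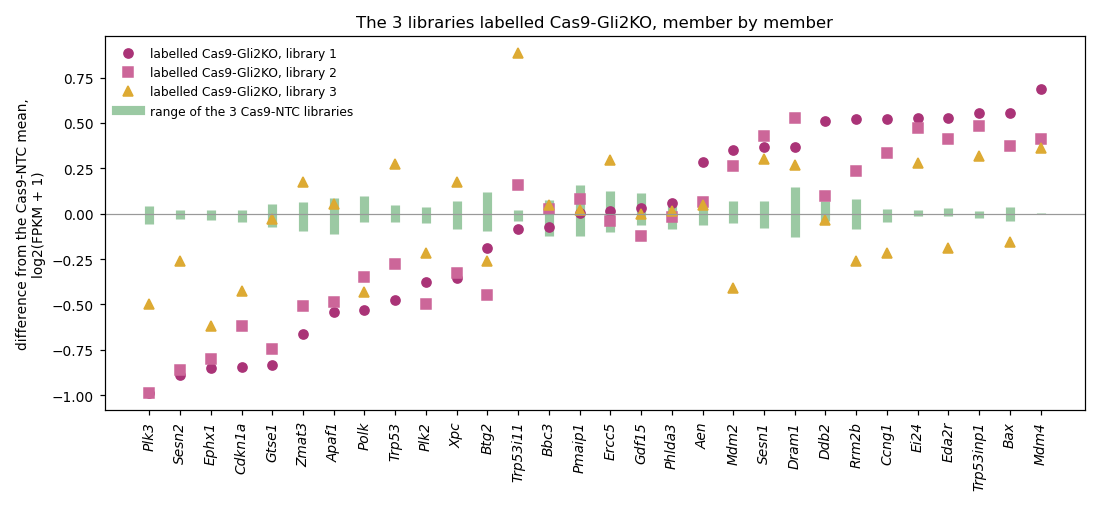
For each of 30 members tested, the difference of each library labelled Cas9-Gli2KO from the mean of the 3 Cas9-NTC libraries, on the log2(FPKM + 1) scale, with the range of the Cas9-NTC libraries as a bar; members are ordered by library 1. Libraries 1 and 2 lie close together, while library 3 is nearer to the controls or on their other side for many members. It is beyond the controls on the opposite side for 8 members. That is 33.3% of those where libraries 1 and 2 share a side, beside 33.7% of such genes among all tested.

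The remaining members of the group are near their control levels or outside them without a call. Mdm4 was at 3.28, 3.27 and 3.26 FPKM in Cas9-NTC and at 5.88, 4.67 and 4.48 in the other group, higher in every library (log2 change 0.49 ± 0.12, limma adjusted p = 0.0627). Sesn1 was at 3.78, 3.31 and 3.57 FPKM in Cas9-NTC and at 4.86, 5.13 and 4.61 in the other group, also higher in every library (0.37, limma adjusted p = 0.078). Sesn2 was at 9.34, 9.02 and 9.26 FPKM and at 4.52, 4.61 and 7.53, in the same order, and thus lower in every library (-0.67, limma adjusted p = 0.0833). The sestrins thus lay on opposite sides of their controls, each on the side opposite to its own change with Gli2CA. Trp53inp1 was at 3.19, 3.21 and 3.10 FPKM in Cas9-NTC and at 5.12, 4.82 and 4.20 in the other group, and Ei24 at 18.4, 18.9 and 18.5 and at 27.2, 26.2 and 22.8. Dram1 was above the controls in all 3 libraries too, at 1.25, 1.51 and 1.10 FPKM, while Btg2, at 2.62, 2.03 and 2.44, and Polk, at 7.89, 9.05 and 8.51, were below them, all 5 with no call. Of these, Dram1 passed the filter through the group labelled Cas9-Gli2KO alone. Gtse1 was at 24.9, 26.5 and 44.2 FPKM, far below the controls in libraries 1 and 2 and within their range in library 3. Bbc3, Pmaip1, Phlda3 and Gdf15 had log2 changes between -0.03 and 0.04. Aen (0.14), Ercc5 (0.09), Ddb2 (0.19), Apaf1 (-0.32) and Trp53i11 (0.32) overlapped between the groups, and without library 3 Apaf1 was called lower while Trp53i11 was at 0.04.

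Of the 29 genes lowered through p21 and DREAM, none was called in this comparison, with 7 at an unadjusted p under 0.05 (24.1%, below the 30.1% of all genes tested), and their median log2 change was 0.03. Of 27 further p53 targets tested, 1 rose, Gadd45a, a sensor of growth arrest and DNA damage, from 11.9 ± 1.18 to 24.1 ± 3.97 FPKM (SD, n = 3 each). Of the 2 that fell, Tob1, an antiproliferative gene, went from 26.6 ± 1.32 to 14.7 ± 1.19 FPKM. None of the 30 upstream regulators tested was called, 4 of them at an unadjusted p under 0.05 (13.3%), and Ppm1d, Atm and Chek2 had log2 changes of 0.06, 0.03 and 0.06. In the list of kinase inhibitors and the RB arm, 1 of 14 was called, a rise of Rbl1, a pocket protein of the DREAM complex, from 10.0 ± 0.0958 to 15.3 ± 1.78 FPKM.

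**Figure D4:**
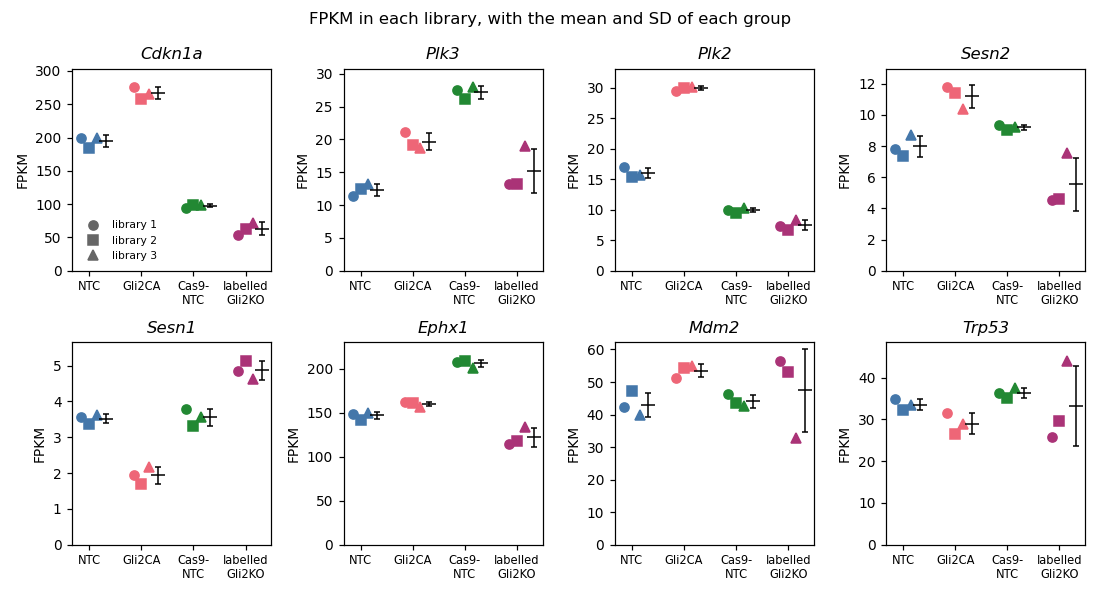
FPKM of 8 members in each of the 12 libraries, 1 panel per gene and 1 colour per group; symbols give the library number, and the bar beside each group is the mean ± SD of its 3 libraries. Cdkn1a and Plk3 are higher in Gli2CA than in NTC and lower in the libraries labelled Cas9-Gli2KO than in Cas9-NTC, while Mdm2 and Trp53 scatter in the libraries labelled Cas9-Gli2KO, with library 3 apart.

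The changes in both experiments were compared directly, as the change from NTC to Gli2CA minus the change from Cas9-NTC to the libraries labelled Cas9-Gli2KO, in 1 fit of all 12 libraries. Of 30 members tested, 14 differed, 8 with a higher and 6 with a lower value for Gli2CA, or 46.7%, beside 28.3% of all 11860 genes tested. Cdkn1a and Plk3 were called in opposite directions in the separate fits, with differences of 1.08 ± 0.15 (SE, limma adjusted p = 0.000334) and 1.45 ± 0.18 (limma adjusted p = 0.000177) on the log2 scale. Plk2 (1.23 ± 0.12, limma adjusted p = 2.98e-05), Sesn2 (1.11 ± 0.21, limma adjusted p = 0.0027) and Ephx1 (0.88 ± 0.12, limma adjusted p = 0.000262) had differences of like size. Gdf15 (0.58, called in 14 of 21 alternatives), Polk (0.56) and Btg2 (0.52) completed the members with a higher value. Those with a lower value were Sesn1 (-0.99 ± 0.12, limma adjusted p = 0.000123), Dram1 (-0.83), Pmaip1 (-0.81), Trp53inp1 (-0.70), Ei24 (-0.65) and Mdm4 (-0.54). All 4 metabolic and secreted members and 4 of 5 arrest genes and kinases were among the 14. So were 4 of 12 death and growth control genes, or 33.3%, close to the 28.3% of all genes tested. Of the 14, 13 had estimates of opposite sign in the experiments, which the choice of members with a large difference favours, and Pmaip1 was below the filter in the first.

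Trp53 and Mdm2 did not pass this test, at -0.05 ± 0.22 (limma adjusted p = 0.885) and 0.24 ± 0.23 (limma adjusted p = 0.444), and their errors are wider than those of Cdkn1a and Plk3. Without the third library labelled Cas9-Gli2KO, 23 of 30 members and 7476 genes in all were called, or 63.6% of all genes tested. Of the 29 genes lowered through p21 and DREAM, 16 had a lower and 1 a higher value, or 58.6% called beside 28.3% of all genes tested. Their median was -0.64 against 0.01 over all genes tested. The lower values were led by Cenpa (-1.15), a centromeric histone, and by Birc5 and Bub1, a mitotic checkpoint kinase (-1.10 each). Of 28 further p53 targets tested, 8 had a higher and 3 a lower value, or 39.3% called. The matrix protein gene Thbs1 (1.55) and the death receptor gene Tnfrsf10b (1.13) were among the higher values, and Psrc1 (-1.25) was the largest lower one. Tnfrsf10b was below the filter in the first experiment, at 0.0677 FPKM in NTC and 0.724 in Gli2CA, and passed it here through the Cas9 groups alone. Of 30 upstream regulators tested, 3 had a higher value, Twist1 (1.08), Ppp1r13l (0.90) and Ppp1r13b (0.53), and 2 a lower one, with Chek1 at -0.96. That is 16.7% called, below the share of all genes tested. Of 14 genes of the kinase inhibitor and RB list, 2 had a higher and 5 a lower value (50% called), with Ccnd2 at 0.62, Ccne2 at -1.41, Rbl1 at -1.10 and Cdk4 at -0.66. Of these, Cenpa, Ppp1r13l, Ppp1r13b and Cdk4 were called in 8 to 10 of 21 alternatives and Ccnd2 in 12.

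**Figure D5:**
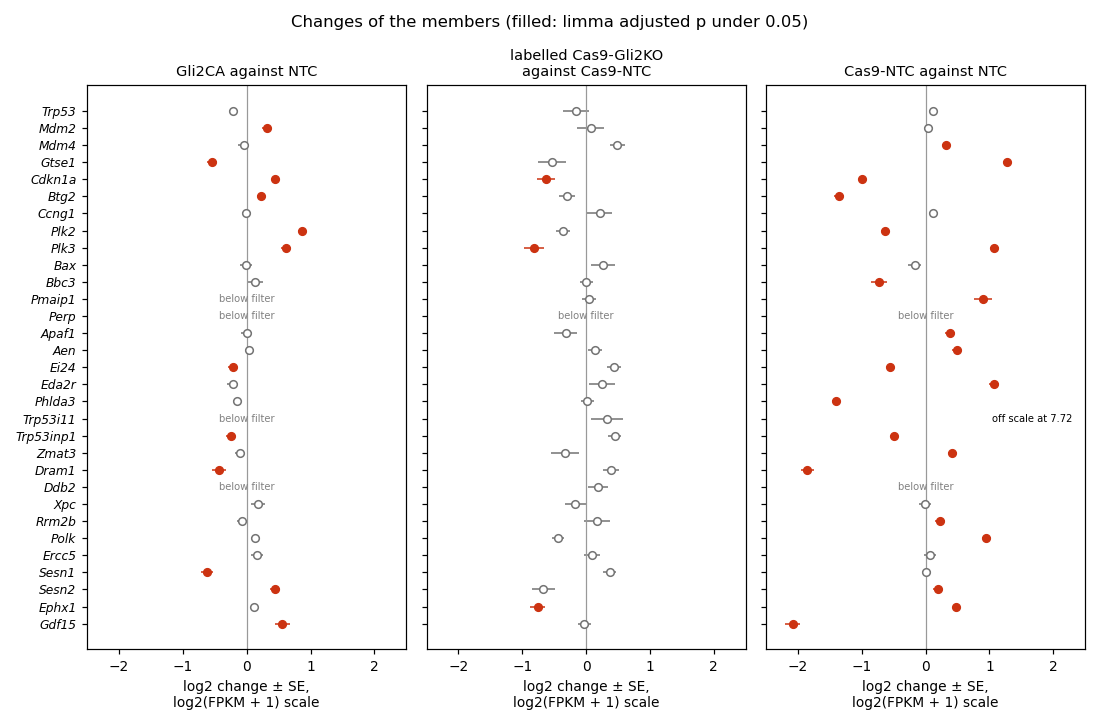
Log2 change ± SE of each member on the log2(FPKM + 1) scale in 3 comparisons, 1 panel each, with members in rows by role and filled points for a limma adjusted p under 0.05. Plk2, Plk3, Cdkn1a and Sesn2 lie right of 0 with Gli2CA and left of 0 in the libraries labelled Cas9-Gli2KO, Sesn1 the reverse, and changes between the control lines are wider, with Trp53i11 off scale at 7.72.

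More members were called between the control lines than within either experiment. Between Cas9-NTC and NTC, 13 of 29 members tested were called higher and 9 lower, and 7 did not pass the test, or 75.9% called, beside 65.2% of all 11224 genes called. Libraries did not overlap for 14 members that were higher and 9 that were lower, or 79.3%, against 70.7% of all genes tested. Trp53 itself was not called (log2 change 0.11, limma adjusted p = 0.118), nor were Mdm2 (0.04), Bax (-0.17), Ccng1 (0.12), Sesn1 (0.01), Xpc (-0.01) and Ercc5 (0.07), which encodes a repair endonuclease. Cas9, the added blasticidin and any divergence of the lines cannot be told apart as sources of these differences.

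Trp53i11 showed the widest gap of the members, from 0, 0 and 0.0337 FPKM in NTC to 206, 215 and 215 in Cas9-NTC, with 200, 237 and 392 in the group labelled Cas9-Gli2KO. The Cas9-NTC mean of 212 FPKM is at least 4750-fold above the level of 3 reads per NTC library, and the gene was called (limma adjusted p = 2.09e-10). Trp53i11 passed the filter through the Cas9-NTC libraries alone. Cdkn1a was lower in Cas9-NTC, 0.50 times its level in NTC without overlap (log2 change -0.99 ± 0.06, limma adjusted p = 1.53e-06). Phlda3 fell from 265, 260 and 284 FPKM in NTC to 95.0, 104 and 104 in Cas9-NTC, also without overlap (log2 change -1.41 ± 0.06, limma adjusted p = 3.73e-07). The largest falls among the members were in Gdf15, at 1.47, 1.45 and 1.77 FPKM in Cas9-NTC, and Dram1, at 0.930, 0.596 and 0.720, which are 0.157 and 0.142 times their NTC means. Btg2, at 2.86, 3.49 and 3.06 FPKM in Cas9-NTC, was at 0.330 times its NTC mean. Bbc3 fell from 7.30, 5.04 and 6.83 FPKM in NTC to 3.64, 3.04 and 3.55 (log2 change -0.73), and Plk2 (-0.64), Ei24 (-0.56) and Trp53inp1 (-0.49) were lower as well.

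Among the members that were higher in Cas9-NTC, Gtse1 reached 42.8, 45.7 and 46.9 FPKM, 2.48 times its NTC mean, and Plk3 2.19 times (limma adjusted p = 8.09e-07 and 3.16e-06). Eda2r rose from 5.17, 5.98 and 4.81 FPKM in NTC to 12.5, 12.1 and 12.1 in Cas9-NTC (log2 change 1.07), and Polk, a DNA polymerase that copies past damaged bases, from 5.69, 6.05 and 5.28 to 12.7, 11.4 and 11.4 (0.95). The libraries of both genes stood far apart. Pmaip1 rose to 3.99, 3.10 and 3.37 FPKM (log2 change 0.90 ± 0.14, limma adjusted p = 0.000578). Ephx1 rose from 149, 142 and 150 FPKM in NTC to its higher level in Cas9-NTC (0.48). Smaller rises were called for Aen, a nuclease of apoptosis, from 6.62, 6.40 and 7.09 FPKM to 9.81, 9.37 and 10.3 (0.49), and for Zmat3, from 5.66, 5.29 and 5.04 to 6.89, 7.63 and 7.82 (0.42). Apaf1 rose from 3.31, 3.68 and 3.12 FPKM to 4.24, 4.78 and 5.02 (0.38) and Mdm4 by 0.32 on the log2 scale, both with no overlap. The calls of Rrm2b, from 3.41, 3.65 and 3.06 FPKM to 4.13, 4.44 and 3.85 (0.23, limma adjusted p = 0.0349), and of Sesn2 (0.19, limma adjusted p = 0.0496) were made in 9 and 5 of 15 alternatives. Ddb2 was below the filter, at 0.4, 0.559 and 0.546 FPKM in NTC and 0.884, 0.894 and 1.03 in Cas9-NTC, and an opposite-strand gene expressed more highly covers 23.8% of its exons.

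By role, 3 of 5 arrest genes and kinases were lower in Cas9-NTC and 1 higher, or 80% called. Death and growth control genes were split 6 higher and 5 lower of 12 tested, or 91.7%, beside 65.2% of all genes tested. Of the 29 genes lowered through p21 and DREAM, 17 were higher and 1 lower, or 62.1% called, close to the 65.2% of all genes tested, with a median of 0.34 against 0.01. They were led by Brca1, a repair gene, at 2.60 ± 0.198 FPKM in NTC and 6.72 ± 0.248 in Cas9-NTC (SD, n = 3), Plk1, a mitotic kinase (log2 change 1.06), Aurka, another mitotic kinase (0.79), and Mcm5, a subunit of the replicative helicase (0.71). Of 28 further p53 targets tested, 10 were higher and 14 lower (85.7% called), with Tnfrsf10b at 0.0677 ± 0.0191 and 8.83 ± 0.0728 FPKM in NTC and Cas9-NTC as the largest rise. Tap1, a peptide transporter of antigen presentation, was at 0.0125 ± 0.0112 and 3.32 ± 0.392 FPKM, and Pltp, a lipid transfer protein gene that shares 19.3% of its exons with the opposite strand, at 31.1 ± 3.15 and 8.30 ± 0.845. Tnfrsf10b and Tap1 passed the filter through Cas9-NTC alone. Of 30 upstream regulators tested, 60% were called, below the share of all genes, and 12 were higher, with Twist1 (1.45), Hipk2 (0.86), a kinase of p53, Pml (0.82) and Atm (0.38) among them, and 6 lower, with Trp53bp2 (-0.66) among them, while Ppm1d (0.20) and Chek2 (0.08) did not pass the test. Of 14 genes of the kinase inhibitor and RB list, 1 was higher and 6 lower (50% called, also below that share), led by Ccnd1 (-1.15), Ccnd3 (-0.74), Ccne2 (-0.71) and Cdk6 (-0.65), all cyclins or kinases of the entry into DNA synthesis.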

How the data were processed

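Polyadenylated RNA of 12 libraries, 3 in each of 4 groups, was measured by sequencing. The authors deposited FPKM for 54532 Ensembl genes, 1 column per library. Not given in the sources used here are the aligner, counter, annotation, genome build and strand setting. The growth and library protocols come from the labels, which give no batch. Symbols, coordinates and exon lengths are those of GENCODE M21 (GRCm38), which held 54495 of the IDs. FPKM times exon length gave whole reads (within 0.02) in 97.8 to 98.4% of cases of 20 reads or fewer, and so depths of 15972800 to 25983200 reads. FPKM sums were 293496 to 407846. Detection limits are 3 reads and cover counting error only.

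Tests were run in limma 3.58.1 (R 4.3.3) on log2(FPKM + 1), with a trended prior, on genes that reach 1 FPKM in 3 or more libraries of the fit. A gene can pass this filter through 1 group alone. Among genes named here, between the control lines Trp53i11, Tnfrsf10b, Tap1, Hipk2, Atr, Fap and Cdh5 did so through Cas9-NTC. Dram1, Sox10, Rab38 and Col1a1 did so through NTC. Between the Cas9 groups, Dram1 passed through the group labelled Cas9-Gli2KO and Pdgfra through Cas9-NTC. Each pair of groups was fitted alone, with 4 residual degrees of freedom, because the groups differ in scatter. The difference of the changes used all 12 libraries, with 8. Calls are 2-sided with a Benjamini-Hochberg adjusted p under 0.05 over all genes tested. A fold in words is a ratio of mean FPKM, while log2 changes include the pseudocount of 1 and understate changes of low genes. The members and lists were chosen with earlier results of these data known. Values per library are given for Trp53, Cdkn1a, Mdm2, Mdm4 and called members, and of each list up to 4 called genes with the largest changes, of which 1 is not reported here. The alternatives were pseudocounts of 0.1 and 5, no filter, median-of-ratios and common-total scaling, 1 fit of all 12 libraries (group-level variance weights for the difference), a replicate block, each library left out, voom on the recovered reads and removal of a length trend. The tests were tried on simulated data. Tables and plots used Python 3.11.15, pandas 2.3.3, numpy 2.4.6 and matplotlib 3.10.9.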

Additional observations from a re-analysis of the deposited data

Results flagged for a closer look

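The responses of Cdkn1a and Plk3 differed between the experiments, with a call in each and opposite signs. For Cdkn1a the difference of the changes was 1.08 ± 0.15 on the log2 scale (limma adjusted p = 0.000334, range over 21 alternatives 0.97 to 1.18), higher in 3 of 3 libraries with Gli2CA and lower in 3 of 3 libraries labelled Cas9-Gli2KO. For Plk3 it was 1.45 ± 0.18 (limma adjusted p = 0.000177, range 1.19 to 1.61), with the same count of libraries. The cause of either difference was not tested.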

How the results depend on the processing

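The values do not settle whether replicate numbers pair the libraries, since deviations from a mean of 3 libraries are not independent. Deviations of libraries with the same number correlated at -0.169 to 0.272, and those with different numbers at -0.314 to 0.283. Not every library correlated best with its own number. With the replicate block, 9 members were called with Gli2CA, beside 25.4% of all genes tested. In the libraries labelled Cas9-Gli2KO it was 0 members, beside 3.24% of all genes (355 genes). Between the controls 21 members were called, beside 62.6% of all genes, and in the difference 14, beside 26.1%. With Gli2CA, 1 fit of all 12 libraries called 6 members and 1606 genes, and leaving out a library gave 8 to 13 members and 1632 to 3041 genes. In the libraries labelled Cas9-Gli2KO, 1 member was called with no filter (505 genes) and 1 with common-total scaling (529 genes). In 1 fit of all 12 libraries 13 were called there (3201 genes). With the length trend removed, chosen after seeing the data, 6 were called (1047 genes). In the same comparison, leaving out a Cas9-NTC library gave 0 members and 18 to 37 genes. Leaving out library 1, 2 or 3 of the other group gave 1, 0 and 21 members and 324, 131 and 7657 genes. In the difference, members numbered 13 to 15 in every alternative but the one without that library 3, with 23, and leaving out a library gave 2317 to 7476 genes. Among called genes and those named whatever their test, signs turned in 13 cases, all for Mdm2, Trp53, Ppm1d, Atm and Chek2 where they were not called. Common-total scaling, which shifted the median of all genes by -0.15 in the libraries labelled Cas9-Gli2KO, gave there -0.11 for Mdm2, -0.10 for Ppm1d, -0.09 for Atm and -0.10 for Chek2. Leaving out a library there moved Mdm2 from -0.07 to 0.31 (-0.03 without library 2), Atm from -0.11 to 0.11 and Chek2 from -0.01 to 0.13. It moved Ppm1d with Gli2CA from -0.17 to 0.02, Mdm2 between the controls from -0.02 to 0.10, and in the difference Trp53 from -0.21 to 0.17 and Atm from -0.26 to 0.00. The cause of these shifts was not tested. With 3 libraries a group and 15 to 25 reads in some, low genes such as Pmaip1 and Ddb2 are limited by counting error.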
